A study of Homo sapiens with 75 samples.

Results

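The genes described here are 10 members of the tumour necrosis factor (TNF) superfamily: the ligands TNF, LTA, LTB, TNFSF9, CD70 and TNFSF13B, and the receptors CD27, TNFRSF13B, TNFRSF13C and TNFRSF17. They were taken by name, through every probe set that the array's annotation gives to 1 gene symbol, which found 12 probe sets for the 10 genes among 41091 such probe sets of 19775 genes. All 12 passed the filter on low values, so no member was left out. Transcripts were measured on 75 arrays in 5 established human lines grown from mantle cell lymphoma, a B cell cancer: HBL-2, Z138, REC-1, GRANTA-519 and JEKO-1. Each line was given GA101 (obinutuzumab), rituximab, GA101 and rituximab together (the combination), an isotype control antibody, or PBS, with 3 arrays per group. Both GA101 and rituximab bind CD20, and each was used at 10 µg/ml, also in the combination. The labels give no concentration for the isotype antibody, no treatment time and no batch, and do not say whether the 3 arrays came from separate cultures, so p-values here reflect array-to-array spread alone, part or all of which may be technical. The labels name no other cell type in the cultures.

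TNF superfamily ligands are membrane proteins that act as trimers, on a neighbouring cell or after being cut loose, and cluster their receptors. The receptors of this group bind TRAF adaptors inside the cell and switch on NF-κB, by the canonical route through NFKB1, REL and RELA or by the alternative route in which TRAF3 falls away and RELB acts. In B cells the family sets survival and help: the cytokine BAFF, encoded by TNFSF13B, binds BAFF-R (TNFRSF13C), TACI (TNFRSF13B) and BCMA (TNFRSF17), while CD70 on activated B cells binds CD27, and TNFSF9 (4-1BBL) binds a receptor on T cells. TNF and the lymphotoxins LTA and LTB are made by B cells to organise lymphoid tissue.

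The values are MAS5 intensities, with the same mean on every array and medians of 11.1 to 17.4, and replicate arrays correlated at 0.964 to 0.973. Changes are log2 differences with the standard error (SE) from limma, and "called" means an adjusted p under 0.05 over the 13879 genes tested in that comparison. The B cell label was borne out by the CD20 gene MS4A1, which had mean intensities of 4349 to 6294 in the PBS arrays of the 5 lines. CD22, another B cell marker, ranged from 22.3 in Z138 to 872 in GRANTA-519. CCND1, the cyclin D1 gene that is switched on by translocation in this lymphoma, was at 1321 in HBL-2 and at 5011 to 5977 in the other lines. The summed intensity of 8 T and NK cell markers was 32.2 to 172.2 over all 75 arrays, with GNLY at 0 to 7.20 in the PBS arrays, and CD14, a monocyte marker, was at 0 to 5.92. Other markers of these kinds were higher in some lines. Their PBS means were 67.5 for CD3G in Z138, 43.4 for CD3D in REC-1 and 87.6 for LYZ, a myeloid marker, in HBL-2. In these bulk samples, fewer cells of a kind and less RNA per cell cannot be told apart, and intensities of different probe sets cannot be set against each other.

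Sequence upstream of the start is shown for 4 ligand genes: TNF, LTA, LTB and TNFSF9. TNF, LTA and LTB lie side by side, and TNF and LTA were highest in GRANTA-519 and LTB in REC-1. TNFSF9 is a ligand that rose with both antibodies. RefSeq's promoter table (GRCh38.p14) held 7 of the 10 members, and CD70, TNFRSF13C and TNFRSF17 were among those without an entry. Each window is the 250 bases before the annotated start, written 5′ to 3′ on the gene's strand: chr6:31575315-31575564 on the plus strand for TNF, chr6:31572039-31572288 on the plus strand for LTA, chr6:31582426-31582675 on the minus strand for LTB and chr19:6530776-6531025 on the plus strand for TNFSF9. Capitals mark matches on either strand to the κB motif, the AP-1 motif TGANTCA or the EGR motif GCGNGGGCG.
TNF: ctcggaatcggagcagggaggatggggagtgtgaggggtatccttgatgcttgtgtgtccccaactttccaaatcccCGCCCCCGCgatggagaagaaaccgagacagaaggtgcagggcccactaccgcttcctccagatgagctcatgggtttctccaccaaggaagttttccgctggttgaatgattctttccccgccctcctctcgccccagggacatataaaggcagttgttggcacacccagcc
LTA: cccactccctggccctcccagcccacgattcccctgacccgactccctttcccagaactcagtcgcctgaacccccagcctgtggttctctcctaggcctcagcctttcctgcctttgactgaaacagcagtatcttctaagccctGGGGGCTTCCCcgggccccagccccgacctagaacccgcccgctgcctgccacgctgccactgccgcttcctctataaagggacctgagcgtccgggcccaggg
LTB: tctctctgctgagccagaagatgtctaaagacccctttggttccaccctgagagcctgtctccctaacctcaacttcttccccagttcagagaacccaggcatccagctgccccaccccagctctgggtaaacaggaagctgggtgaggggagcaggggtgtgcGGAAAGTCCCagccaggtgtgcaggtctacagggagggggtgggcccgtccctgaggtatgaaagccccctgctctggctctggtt
TNFSF9: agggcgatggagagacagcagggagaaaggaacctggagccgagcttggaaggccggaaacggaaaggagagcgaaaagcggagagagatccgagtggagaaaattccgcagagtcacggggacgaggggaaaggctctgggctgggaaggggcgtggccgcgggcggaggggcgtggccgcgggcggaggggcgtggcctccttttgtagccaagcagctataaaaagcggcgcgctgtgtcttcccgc
The LTA window held a run of overlapping κB matches, the LTB window a κB match and the TNF window an EGR match, while the letters of none of the 3 motifs stand in the TNFSF9 window. The window of another annotated LTA start, chr6:31571849-31572098, is not shown and held no match to the 3 motifs. Of 35116 promoter windows of the same length, 9.96% held a κB match, 6.57% an AP-1 match and 8.41% an EGR match. A match describes these letters only.

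Without antibody, the levels of superfamily transcripts differed between lines. Such differences were common on these arrays: 81% of all genes tested differed in PBS level between the 5 lines in limma's F test. LTB, the membrane anchor of the lymphotoxin trimer, was a REC-1 transcript, with intensities of 918, 906 and 935 in the 3 PBS arrays of REC-1. In the other lines LTB lay at 72.1, 77.9 and 81.5 (GRANTA-519), 76.1, 55.7 and 52.3 (HBL-2), 36.9, 38.9 and 33.2 (Z138) and 37.8, 25.6 and 30.4 (JEKO-1). No array of another line came near those of REC-1, and the neighbours GRANTA-519 and HBL-2, and Z138 and JEKO-1, did not differ beyond their spread (adjusted p = 0.113 and 0.32). The REC-1 level was higher than that of GRANTA-519 by 3.58 on the log2 scale (adjusted p = 1.23e-24). This rested on 1 of 2 probe sets, since the second LTB probe set had means of 15.99 to 23.7 in the 5 lines and no such difference.

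LTA and TNF, the neighbours of LTB on chromosome 6, were highest in another line. LTA, which forms a soluble trimer or joins LTB, was measured at 86.3, 56.2 and 71.5 in the PBS arrays of GRANTA-519. In the other 4 lines LTA lay at 0.95 to 2.05, about 1 or 2 of the smallest steps in which the values move, so only GRANTA-519 had a level above that floor. TNF was also highest in GRANTA-519, at 30.5, 30.6 and 24.2, followed by REC-1 at 11.6, 3.90 and 11.96. The difference between these lines was 1.79 (adjusted p = 0.0156), and REC-1, JEKO-1, HBL-2 and Z138, in that order, did not differ between neighbours. TNF passed the filter on low values only through GRANTA-519 and REC-1. Tests of these lines against the others therefore cannot show a difference, and none is drawn from them. TNF means of 1.91 in Z138, 2.73 in HBL-2 and 4.45 in JEKO-1 are close to the lowest values the arrays gave.

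The costimulatory ligands were measured in all 5 lines. CD70 was led by GRANTA-519 with a mean of 1073 ± 23.8 (SD, n = 3), then REC-1 with 773 ± 39.6, JEKO-1 with 602 ± 10.3, Z138 with 566 ± 25.7 and HBL-2 with 560 ± 14.7. Among the last 3 lines, neighbours did not differ beyond their spread, at adjusted p = 0.0828 for JEKO-1 and Z138 and 0.791 for Z138 and HBL-2. JEKO-1 and HBL-2, which are not neighbours in this order, were called as different. TNFSF9 was at 236 ± 29.6 in GRANTA-519, 230.1 ± 29.6 in JEKO-1, 200 ± 34.8 in HBL-2, 162 ± 20.3 in Z138 and 105 ± 9.04 in REC-1. Among neighbouring lines only the step from Z138 to REC-1 passed the test (0.61, adjusted p = 0.00153). Z138 was also called below GRANTA-519 and JEKO-1. TNFSF13B, the BAFF gene, ran from 43.4 ± 2.48 in GRANTA-519 through 31.0 ± 5.98 in REC-1, 26.1 ± 2.22 in HBL-2 and 14.95 ± 2.01 in Z138 to 9.44 ± 2.23 in JEKO-1. Of its neighbouring lines only HBL-2 and Z138 differed (adjusted p = 0.022), and the JEKO-1 mean lay under 11.7, the median probe set's level. Its second probe set was also highest in GRANTA-519, with a mean of 23.0 against 4.48 to 9.75 elsewhere.

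Among the receptors, TNFRSF17 separated all 5 lines. This gene encodes BCMA, the BAFF and APRIL receptor of late B cells and plasma cells, and it was at 1863, 1757 and 1700 in the PBS arrays of Z138. It fell through GRANTA-519 (627, 756 and 628), JEKO-1 (396, 403 and 404) and HBL-2 (137.9, 140.3 and 103) to REC-1 (25.1, 19.5 and 13.9). The arrays of no pair of lines overlapped, and all 10 pairs of lines were called, where 54.6% of such pairs over all genes were, with the narrowest step of 0.74 between GRANTA-519 and JEKO-1 (adjusted p = 0.0127). CD27, the receptor of CD70, was at 899 ± 116 in GRANTA-519 and 141 ± 19.0 in JEKO-1, against 25.1 ± 2.93 in HBL-2, 22.5 ± 6.45 in REC-1 and 12.8 ± 3.07 in Z138. HBL-2 and REC-1 did not differ (adjusted p = 0.567), and the step from REC-1 to Z138 passed (adjusted p = 0.00523). CD27 is also a T cell gene, and the 8 T and NK cell markers summed to 32.2 to 81.4 over the GRANTA-519 arrays, to 42.1 to 97.6 in JEKO-1, to 46.7 to 106 in HBL-2, to 97.7 to 156 in Z138 and to 116 to 172.2 in REC-1. Whether T cells added to the CD27 values was not tested.

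The other 2 BAFF receptors varied less. TNFRSF13B, encoding TACI, was highest in REC-1, with a mean of 145 ± 15.3, and at 80.5 ± 28.4 in Z138, 77.4 ± 29.7 in GRANTA-519, 57.2 ± 5.14 in JEKO-1 and 55.6 ± 8.62 in HBL-2. REC-1 differed from Z138 (0.91 higher, adjusted p = 0.00387), and none of the neighbours after it did. TNFRSF13C, encoding BAFF-R, ran from 54.4 ± 4.05 in REC-1 through JEKO-1, GRANTA-519 and HBL-2, at 41.0 ± 6.44, with no difference between neighbours. Z138 stood below, with PBS arrays at 16.1, 0.97 and 19.0, of which the second lay at the floor. No count of members that differed between the lines is given, since LTA passed the filter on low values only through GRANTA-519, where it is high, and TNF only through GRANTA-519 and REC-1.

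**Figure D1:**
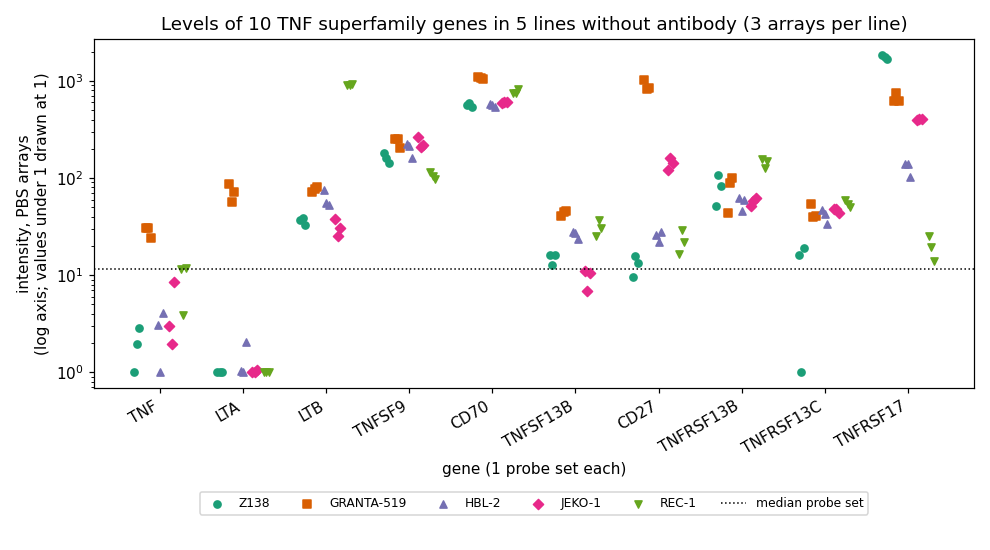
Intensity of the 10 genes (log axis, vertical) on each of the 3 PBS arrays of the 5 lines, with 1 probe set per gene along the horizontal axis and the median probe set as a dotted line. LTB was high in REC-1, LTA, TNF and CD27 in GRANTA-519, and TNFRSF17 ran from Z138 down to REC-1, while CD70 and TNFSF9 were well above the dotted line in all 5 lines.

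Both antibodies against CD20 raised the costimulatory ligands CD70 and TNFSF9 over the isotype arrays. With equal weight for each line, GA101 changed 3 of the 10 members against isotype, where it changed 18.2% of all genes tested: CD70 (0.22), TNFSF9 (0.34) and LTB (0.25) rose and none fell. Rituximab changed 2 of 10, CD70 (0.25) and TNFSF9 (0.28), against 20.7% of all genes. The combination changed the same 2, CD70 (0.25) and TNFSF9 (0.38), against 17.4%. Of all genes, 12.5% rose and 5.77% fell with GA101, 13.8% and 6.9% with rituximab, and 11.4% and 6.01% with the combination, so 2 or 3 rises among 10 members exceed the background share by 1 or 2 genes. These comparisons share the isotype arrays. Against PBS, GA101 changed CD70 (0.09) and TNFSF9 (0.27), where 10.6% of all genes changed, rituximab changed CD70 alone (0.12; 12.1%), and the combination changed CD70 (0.12) and TNFSF9 (0.31; 8.53%).

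**Figure D2:**
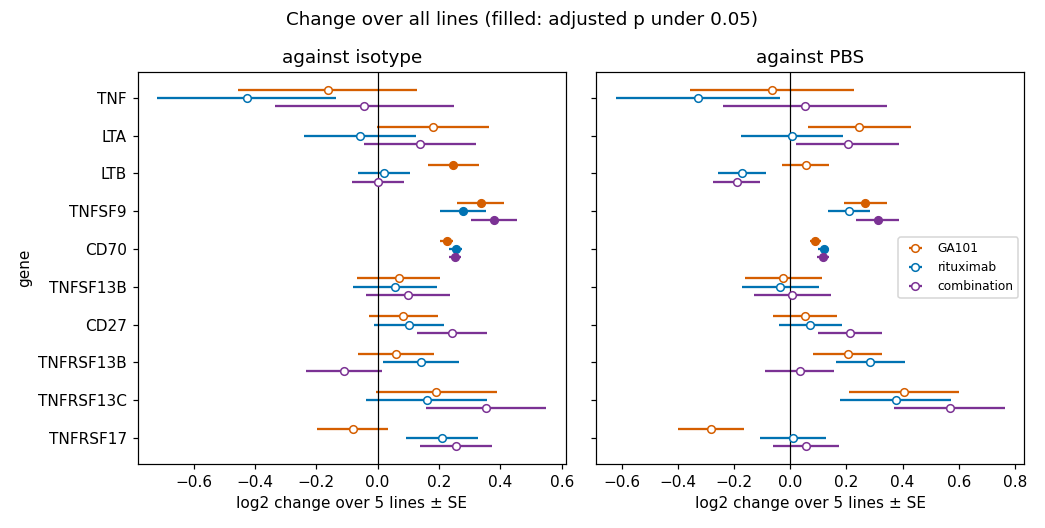
Log2 change of each member over the 5 lines (horizontal, with SE bars) for GA101, rituximab and the combination against isotype (left) and against PBS (right), with filled points for an adjusted p under 0.05. CD70 and TNFSF9 lie to the right of 0 in both panels, and the CD70 changes against PBS are the smaller ones.

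CD70, the ligand of CD27, had the narrowest errors of the 10. In JEKO-1 its isotype arrays gave 561, 575 and 569 and its PBS arrays 592, 612 and 603, against 745, 710 and 724 with GA101, 781, 727 and 721 with rituximab, and 709, 743 and 713 with the combination. All 9 arrays with an antibody against CD20 lay above all 6 control arrays of that line, and in each of the 5 lines the 9 lay above the 3 isotype arrays. The changes in JEKO-1 were 0.35 ± 0.0441 (SE), 0.39 and 0.34 against isotype (adjusted p = 1.8e-08, 2.11e-09 and 5.49e-08) and 0.27, 0.30 and 0.26 against PBS (adjusted p = 3.26e-05, 2.29e-06 and 6.68e-05).

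In the other lines the rise of CD70 depended on which control it was set against. In Z138 the isotype arrays were at 481, 498 and 520 and the PBS arrays at 565, 593 and 541, below the 608 to 644 of the 9 arrays with GA101, rituximab or both. Against isotype CD70 rose in Z138 by 0.30, 0.32 and 0.33, and against PBS only the combination was called (0.15, adjusted p = 0.0447). In HBL-2 the antibody arrays gave 517 to 573, above isotype at 488 to 506, while those with GA101 lay below PBS at 544 to 573 and the others overlapped it. There rituximab (0.18) and the combination (0.15) were called against isotype and GA101 was not (0.10, adjusted p = 0.22), while against PBS the values were 0.01, -0.02 and -0.07. GRANTA-519 rose by 0.21, 0.21 and 0.23 and REC-1 by 0.16, 0.18 and 0.19 against isotype with GA101, rituximab and the combination, all called, and by 0.06 to 0.10 against PBS, none called. With the 15 arrays of a line fitted alone, an alternative added after the data were seen, none of these 6 was called, at adjusted p = 0.083, 0.0593 and 0.0646 in GRANTA-519 and 0.0715, 0.084 and 0.0558 in REC-1, nor was the combination in HBL-2 (adjusted p = 0.0558), while the Z138 and JEKO-1 calls remained. Rituximab in HBL-2 was lost with quantile normalization (0.13, adjusted p = 0.0614). The GRANTA-519 calls for GA101 and rituximab were lost without 1 isotype array, replicate 2, at 0.15 and 0.16 (adjusted p up to 0.0764 and 0.0501). The REC-1 calls were lost without isotype replicate 3, for GA101 also without GA101 replicate 1 and for rituximab without rituximab replicate 2, and the combination call in HBL-2 without combination replicate 2 or 3 or isotype replicate 2.

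CD70 was the 1 member that the isotype antibody itself changed. Over all lines it was 0.13 lower with isotype than with PBS (adjusted p = 1.09e-06), where 6.46% of all genes changed. The fall was called in Z138 (-0.18) and HBL-2 (-0.17), which are 2 of 50 pairs of a member and a line against 1.35% of pairs over all genes, and it was lost in Z138 without isotype replicate 1 or PBS replicate 2, and in HBL-2 in 5 of 6 fits without 1 array (the exception left out PBS replicate 3). With each line fitted alone neither was called (adjusted p = 0.126 and 0.146). The response of CD70 to the antibodies differed between the lines in limma's F test, against isotype (adjusted p = 0.00969 for GA101 and 0.0306 for rituximab) and against PBS (0.00156 and 0.00568). With quantile normalization the GA101 tests for CD70 were not passed (adjusted p = 0.326 against isotype and 0.177 against PBS), and those for rituximab were (0.0474 and 0.0355).

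Against isotype, TNFSF9, the 4-1BB ligand, rose most in HBL-2, and against PBS its widest rise was that with GA101 in Z138. Its isotype arrays in HBL-2 were at 163, 156 and 137, against 254, 251 and 210 with GA101, 264, 313 and 265 with rituximab, and 296, 268 and 301 with the combination. All 9 antibody arrays lay above the 3 isotype arrays, and the PBS arrays, at 224, 215 and 160, overlapped the GA101 arrays. Against isotype the changes were 0.65 ± 0.169 (SE, adjusted p = 0.0102), 0.88 (adjusted p = 1.03e-04) and 0.93 (adjusted p = 5.71e-05), and against PBS 0.26, 0.50 and 0.54, of which the combination was called (adjusted p = 0.0355).

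In Z138 TNFSF9 was high with GA101 alone. The GA101 arrays gave 305, 274 and 254, against 188, 184 and 169 with isotype, 182, 161 and 141 with PBS, 180.3, 215 and 178 with rituximab and 202, 217 and 213 with the combination. No other array of the line reached the lowest GA101 array. GA101 raised TNFSF9 by 0.62 against isotype (adjusted p = 0.00944) and by 0.79 against PBS (adjusted p = 0.00192), while rituximab gave 0.08 and 0.25 and the combination 0.23 and 0.39, none called. The GA101 minus rituximab difference of TNFSF9 in Z138, 0.54, missed the threshold (adjusted p = 0.098) and passed it when the 15 arrays of the line were fitted alone (adjusted p = 0.0261).

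JEKO-1 had changes of TNFSF9 of 0.36, 0.40 and 0.41 against isotype and GRANTA-519 of 0.32, 0.13 and 0.38, none called. REC-1, the line with the lowest TNFSF9, had -0.28, -0.11 and -0.05, with arrays of 70.6 to 156 over all its groups. The JEKO-1 arrays were at 277 to 338.5 with GA101, 310 to 336 with rituximab and 306 to 348 with the combination. Isotype gave 215 to 293 and PBS 207 to 264 in that line. Against PBS no TNFSF9 change in JEKO-1 was called with the spread shared over all lines. With the line fitted alone, rituximab and the combination were called against PBS. The change of TNFSF9 differed between the 5 lines for GA101 (adjusted p = 0.0199) and rituximab (adjusted p = 0.0161) against isotype. Against PBS it did so for GA101 (adjusted p = 0.0175) and missed for rituximab (adjusted p = 0.133). With quantile normalization the GA101 tests for TNFSF9 missed too (adjusted p = 0.118 against isotype and 0.0845 against PBS), and rituximab against isotype passed (adjusted p = 0.0267). With replicate number as a block, TNFSF9 passed all of these F tests, that for rituximab against PBS at adjusted p = 0.0292. It then also passed for GA101 minus rituximab (adjusted p = 0.0416). The calls for GA101 in single lines were sensitive to single arrays: that in Z138 was lost without GA101 replicate 1 or isotype replicate 3, and that in HBL-2 without GA101 replicate 1 or 2 or isotype replicate 3 (adjusted p up to 0.0676 and 0.0707). The Z138 call was also lost with quantile normalization (0.52, adjusted p = 0.0633), and both were kept with the line fitted alone.

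**Figure D3:**
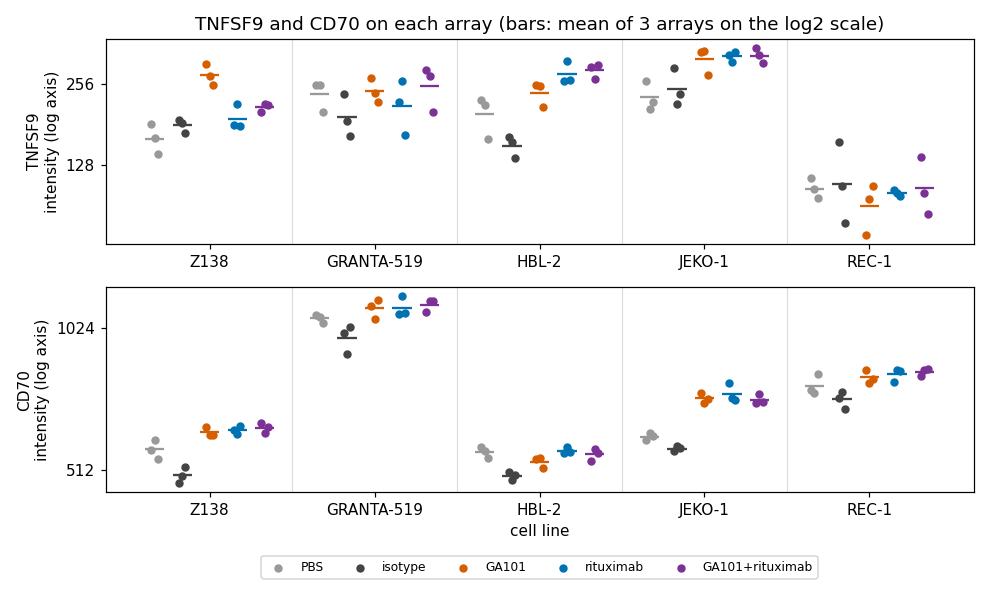
Intensity of TNFSF9 (top) and CD70 (bottom) on each array (log axis, vertical) by line and treatment, with bars for the mean of 3 arrays on the log2 scale. CD70 sits higher with GA101, rituximab or both than with isotype in every line, and the TNFSF9 points of Z138 are highest with GA101.

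Of the lymphotoxin and TNF transcripts, LTB and TNF were called between treatments within a line, both in HBL-2, and LTA was called in none. LTB in HBL-2 was higher with GA101 than with rituximab: its arrays were at 65.9, 66.4 and 68.2 with GA101 and at 43.5, 33.5 and 30.2 with rituximab, and the groups did not overlap. Isotype gave 46.2, 43.1 and 54.5, PBS 76.1, 55.7 and 52.3 and the combination 43.5, 44.8 and 42.1, so GA101 lay above isotype and within PBS, and rituximab at or below both. The difference between GA101 and rituximab was 0.92 ± 0.188 (SE, adjusted p = 0.00145), and LTB fell by 0.78 with rituximab against PBS (adjusted p = 0.00335). With the mean of both LTB probe sets the GA101 minus rituximab difference was 0.43 (adjusted p = 0.318).

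Over all lines LTB rose by 0.25 with GA101 against isotype (adjusted p = 0.0304), with 0.49 in HBL-2, 0.45 in JEKO-1, 0.34 in Z138, 0.12 in GRANTA-519 and -0.16 in REC-1. That call was lost against PBS (0.06, adjusted p = 0.781), with quantile normalization (0.22, adjusted p = 0.0674), with the mean of the probe sets (0.01, adjusted p = 0.977) and in 7 of 30 fits without 1 array. These 7 left out GA101 replicate 1 of Z138, replicate 1 or 3 of JEKO-1, or isotype replicate 2 of Z138 or HBL-2, 1 of GRANTA-519 or 3 of JEKO-1. In REC-1, where LTB is high, its arrays were at 773 to 805 with GA101, 738 to 819 with rituximab and 780 to 786 with the combination, below the 857 to 935 of all 6 isotype and PBS arrays. The changes against isotype, -0.16, -0.19 and -0.18, were not called with the spread shared over all lines. Fitted on the 15 REC-1 arrays alone, GA101 and rituximab were called (adjusted p = 0.04 and 0.032) and the combination was not (adjusted p = 0.0539). Against PBS, GA101, rituximab and the combination were all called for LTB in that fit.

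With the floor of 1, LTA did not pass the test in any comparison between treatments. In GRANTA-519 its arrays were at 104, 100.5 and 104 with GA101, 86.0, 95.4 and 85.4 with rituximab, and 92.6, 89.4 and 91.4 with the combination. Isotype gave 73.7, 58.6 and 82.9 and PBS 86.3, 56.2 and 71.5, so the GA101 arrays lay above all 6 controls. The changes against isotype were 0.53 ± 0.408 (SE), 0.32 and 0.36 (adjusted p = 0.59, 0.82 and 0.85), with an SE that pools all 5 lines. With a floor of 16 the GA101 change of LTA differed between the lines in limma's F test. Adjusted p was 8.7e-05 against isotype and 7.2e-05 against PBS. That floor sets every LTA array outside GRANTA-519 to the same value, so only GRANTA-519 adds spread. TNF was called in HBL-2, where the combination arrays, at 7.92, 7.79 and 4.01, lay above GA101 at 0.98, 0.98 and 1 (2.65, adjusted p = 0.0156). All of these lie under the median probe set, and with a floor of 16 in place of 1 nothing is left of the difference. The call was also lost without GA101 replicate 1 or 2 or combination replicate 1 or 2, and with the line fitted alone (adjusted p = 0.183). In GRANTA-519, where TNF was highest, isotype arrays gave 28.0 to 44.0 and GA101 arrays 9.04 to 35, with a change of -0.88 ± 0.653 (SE, adjusted p = 0.58).

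TNFSF13B, the BAFF gene, was not called in any comparison between treatments. Over all lines its changes against isotype were 0.07, 0.06 and 0.10 with GA101, rituximab and the combination, each with an SE of 0.136. Its widest change in a line was 0.76 with the combination against PBS in JEKO-1, with arrays of 11.4, 24.0 and 13.9 against 10.9, 6.88 and 10.5 (adjusted p = 0.18).

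Against isotype the receptor with the widest called change was TNFRSF17, in HBL-2. Isotype arrays of HBL-2 were at 120, 95.1 and 113 and PBS arrays at 137.9, 140.3 and 103. With rituximab they were at 303, 290.5 and 296, with the combination at 294, 303 and 270.4, and with GA101 at 216, 181 and 170. The rituximab and combination arrays lay above the GA101 arrays, and these above all 6 controls, with no overlap. TNFRSF17 rose by 1.45 ± 0.261 (SE) with rituximab (2.73-fold, adjusted p = 3.65e-05) and by 1.41 with the combination (adjusted p = 7.05e-05) against isotype, and by 1.23 and 1.20 against PBS (adjusted p = 5.86e-04 and 0.00102). GA101 gave 0.79 against isotype (adjusted p = 0.061) and 0.57 against PBS (adjusted p = 0.26).

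The SE for TNFRSF17 is shared by all lines and includes the scatter of REC-1, where the values are near the floor. With the 15 arrays of HBL-2 alone the SE was 0.123. GA101 was then called against isotype (adjusted p = 0.0015), as were GA101 minus rituximab (-0.66, adjusted p = 0.012) and combination minus GA101 (0.62, adjusted p = 0.0218).

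In Z138, which had the most TNFRSF17, the GA101 arrays were at 1458, 1473 and 1368. Isotype gave 1759, 1764 and 1692, PBS 1863, 1757 and 1700, rituximab 1811, 1625 and 1610 and the combination 1826, 1686 and 1691. The GA101 arrays lay below the other 12, at -0.28 against isotype, which was not called with the shared SE (adjusted p = 0.64) and was called with the line fitted alone (adjusted p = 0.00694). In JEKO-1 and GRANTA-519 the changes against isotype were 0.11 to 0.23 and -0.19 to -0.17, none called with the shared SE. With the line fitted alone the combination was called in JEKO-1 (0.23, adjusted p = 0.0242). In REC-1 TNFRSF17 fell by 0.83 with GA101 (adjusted p = 0.0259), but the GA101 arrays were at 3.92, 5.90 and 20.9 and the isotype arrays at 12.1, 17.3 and 12.9, so the groups overlapped at the level of the median probe set. That call was lost without GA101 replicate 1 or 2 or isotype replicate 2, and with the line fitted alone (adjusted p = 0.403), and with a floor of 16 the value was 0.09. The change of TNFRSF17 differed between the lines for GA101 (adjusted p = 0.0148) and rituximab (adjusted p = 0.00153) against isotype, and against PBS (0.00446 and 9.33e-04), and with quantile normalization these 4 tests passed too.

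CD27 and TNFRSF13C were called in Z138, the line with the least of both. Their isotype arrays there, at 10.3 to 14.5 and 9.67 to 12.3, lay on both sides of the median probe set's 11.7. CD27 was at 26.8, 30.1 and 25.8 with the combination, against 14.5, 10.3 and 10.4 with isotype, 9.47, 15.6 and 13.3 with PBS, 20.1, 7.66 and 21.0 with GA101 and 17.9, 21.8 and 17.5 with rituximab. The combination arrays lay above the other 12. Its change was 1.25 ± 0.253 (SE, adjusted p = 3.51e-04) against isotype and 1.14 (adjusted p = 0.00386) against PBS, and in JEKO-1 and GRANTA-519, where CD27 is higher, the same changes were -0.10 and 0.06 against isotype. With the 15 Z138 arrays fitted alone the change of CD27 was called against isotype (adjusted p = 0.0482) and not against PBS (adjusted p = 0.169). The combination minus GA101 difference, 0.89 (adjusted p = 0.0486), was lost in 4 of 6 fits without 1 array: without GA101 replicate 2, at 7.66, it was 0.42, and the other 3 left out a combination array. It was also lost under each other alternative run for it (adjusted p = 0.0571 to 0.409).

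TNFRSF13C in Z138 gave 37.8, 22.6 and 25.8 with the combination, 22.1, 18.2 and 25.0 with GA101 and 14.2, 19.9 and 26.3 with rituximab. Isotype arrays were at 9.67, 12.2 and 12.3, below all 9 of them, and PBS arrays at 16.1, 0.97 and 19.0. The combination was called against isotype (1.31 ± 0.44, adjusted p = 0.0439), and GA101 (1.68), rituximab (1.53) and the combination (2.06) against PBS, where 1 array lay at the floor. The call against isotype was lost in each of the 6 fits without 1 array (adjusted p up to 0.203, change 1.09 to 1.46). It was lost as well with quantile normalization, no filter, the mean of probe sets and all probe sets fitted (adjusted p = 0.06 to 0.0658). With the line fitted alone none of these 4 changes of TNFRSF13C was called (adjusted p = 0.388 against isotype and 0.287 to 0.408 against PBS). TNFRSF13B was called in no comparison between treatments. Its widest change, -0.73 with the combination in HBL-2, came from arrays of 32.6, 33.1 and 55.1 against 78.7, 77.5 and 44.2 with isotype, which overlapped (adjusted p = 0.099).

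**Figure D4:**
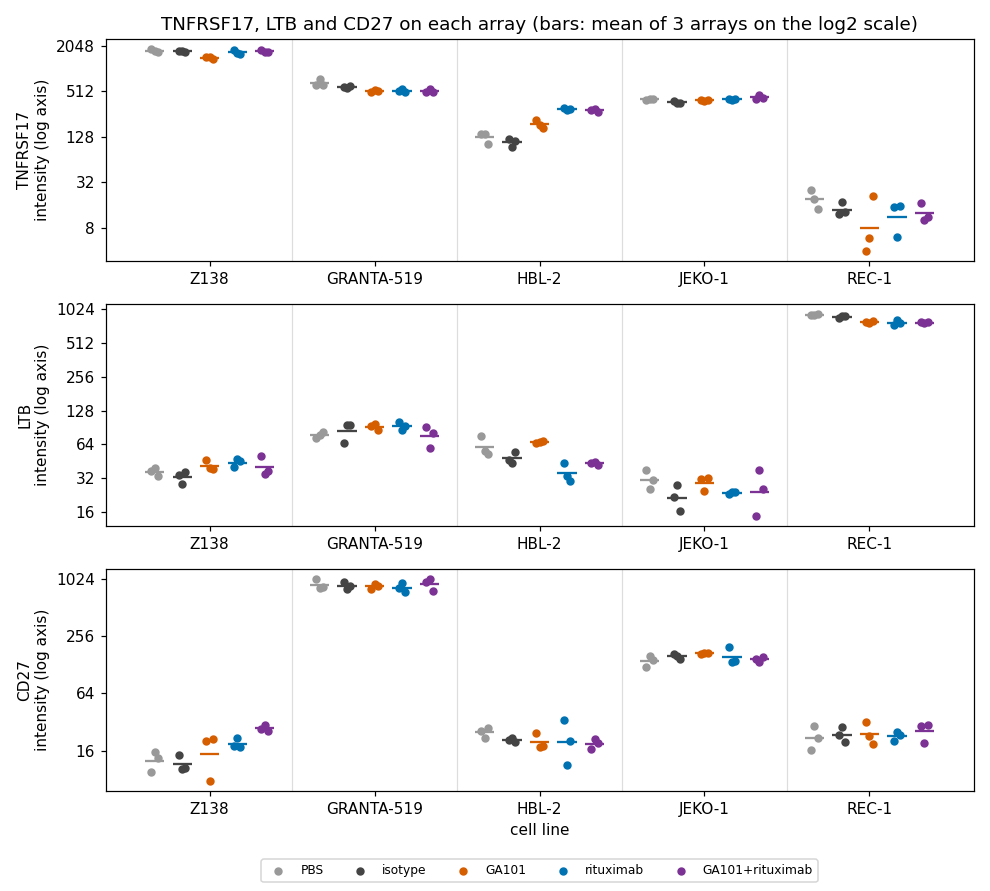
Intensity of TNFRSF17 (top), LTB (middle) and CD27 (bottom) on each array (log axis, vertical) by line and treatment, with bars for the mean of 3 arrays on the log2 scale. TNFRSF17 in HBL-2 rises from isotype at 95.1 to 120 to 290.5 to 303 with rituximab, LTB in HBL-2 is lowest with rituximab, and CD27 in Z138 is highest with the combination.

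Counted over the 50 pairs of a member and a line, GA101 changed 7 against isotype (6 higher and 1 lower), where 7.6% of all pairs of a gene and a line changed. Rituximab changed 7, all higher, against 7.84%, and the combination 9, all higher, against 6.44%. Of these 23 calls, 14 were of CD70, 4 of TNFSF9 and 3 of TNFRSF17. With each line fitted alone 14 of the 23 were kept and 9 lost, of which 7 were of CD70, and 5 were gained, 3 of TNFRSF17 and 2 of LTB. Against PBS, GA101 changed 4 pairs (3 higher and 1 lower, 4.53% of all pairs), rituximab 4 (3 higher and 1 lower, 4.27%) and the combination 6, all higher (3.48%). With each line fitted alone 8 of these calls against PBS were kept, 6 were lost and 8 were gained, 3 of LTB, 3 of TNFSF9 and 2 of TNFRSF17. The members whose response differed between lines were 3 for GA101 against isotype, where 14.1% of all genes differed, and 3 for rituximab, where 11.5% did: CD70, TNFSF9 and TNFRSF17 in both. Against PBS the same 3 members were called for GA101, where 11% of all genes were, and 3 for rituximab, where 8.85% were: CD70, TNFRSF17 and LTB (adjusted p = 0.0106 for LTB, and 0.0699 with the mean of its probe sets).

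With all lines weighed together, no member was called between the 2 antibodies. GA101 minus rituximab was called for 0 of 10 members, where 2.23% of all genes were called by limma (1.23% higher and 1% lower with GA101). At an unadjusted p under 0.05 there were 2, LTB and TNFRSF17. The interval of the difference (95%) was -0.07 to 0.01 for CD70 and -0.09 to 0.21 for TNFSF9, against rises of 0.22 to 0.34 with either, and was wider for TNFRSF17 (-0.52 to -0.06, adjusted p = 0.24) and LTB (0.06 to 0.40, adjusted p = 0.19). Within lines LTB in HBL-2 was the 1 call of 50 pairs, against 1.44% of all pairs, and in the test for a difference between the lines 0 members were called, against 3.61%, with LTB at adjusted p = 0.0513. The combination minus GA101 was called for 0 members over all lines (1.43% of all genes) and for 2 pairs, TNF in HBL-2 and CD27 in Z138 (1.18% of all pairs). The combination minus rituximab was called for 0 members and 0 pairs, against 0% of all genes and 0.0562% of all pairs, with intervals of -0.04 to 0.04 for CD70 and -0.05 to 0.25 for TNFSF9. At an unadjusted p under 0.05 there were 2 members for the combination minus GA101 (LTB and TNFRSF17) and 1 for the combination minus rituximab (TNFRSF13B).

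The rest of the pathway was read from 4 lists. Of 12 other ligands 6 were tested, and over all lines GA101 raised TNFSF4 (OX40L, 0.36 ± 0.121, adjusted p = 0.0279) against isotype, while rituximab and the combination changed none. That is 1 of 6 higher, where 12.5% of all genes were. The median change of the 6 with GA101 was 0.16, against 0.02 over all genes. Of 25 other receptors 21 were tested, and GA101 raised 3: TNFRSF1A, a receptor of TNF (0.52), CD40, the receptor for T cell help (0.21), and TNFRSF21 (0.27). These 3 of 21 are near the 12.5% of all genes that rose, and 0 of 21 fell. Rituximab lowered CD40 (-0.14, adjusted p = 0.00566), and the difference of CD40 between GA101 and rituximab, 0.35 ± 0.0406, was the 1 call among these 21 receptors (adjusted p = 6.47e-09), where 2.23% of all genes were called. Against PBS, however, GA101 gave -0.02 for CD40 (adjusted p = 0.851) and 0.10 for TNFSF4 (adjusted p = 0.716), and the isotype antibody itself lowered CD40 (-0.23, adjusted p = 5.31e-05). The combination raised TNFRSF1B, the other TNF receptor (0.13). The medians of the 21 were 0.07, 0.02 and 0.06 with GA101, rituximab and the combination.

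Of 21 adaptors and NF-κB genes 18 were tested, and GA101 minus rituximab was called for 5, all higher with GA101, where 1.23% of all genes were: TNFAIP3, a feedback inhibitor of NF-κB (0.41), NFKB1 (0.29), RELB (0.33), REL (0.16) and TRAF4 (0.25). The median difference of the 18 was 0.08, against 0.000736 over all genes. Against isotype, GA101 raised 6, among them TRADD, an adaptor of the TNF receptor (0.39), and lowered TRAF3, the brake on the alternative route (-0.38), where 12.5% of all genes rose and 5.77% fell. Rituximab raised 2 and lowered 6, among them RELB (-0.48), TRAF3 (-0.41) and TNFAIP3 (-0.25), and the combination raised 2 and lowered 4, where 13.8% and 11.4% of all genes rose and 6.9% and 6.01% fell. TRADD and IKBKB were the 2 that rituximab and the combination raised, and TRADD rose by 0.45 with rituximab. However, the isotype antibody itself lowered TRADD and IKBKB against PBS. Against PBS neither was called with GA101, rituximab or the combination. None of the 4 proteases that cut the ligands or their stubs, ADAM10, ADAM17, FURIN and SPPL2A, was called in any of these comparisons.

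The genes whose pattern over treatments was most like that of a member were found by Pearson's correlation over the 25 group means after each line's mean was subtracted. These means share their arrays and controls, so the values describe the data and were not tested. CD70 was nearest to HSPH1, a heat shock protein (0.953), ZC3H13 (0.936) and SCFD2 (0.928). TNFSF9 was nearest to KLF6 (0.881), NPC1 (0.871) and DHX32 (0.866), and TNFRSF17 to DPYSL2 (0.876), CNR1 (0.864) and MTMR4 (0.844). LTB was nearest to CDH6 (0.817) and CD27 to PTPRCAP (0.805). Among the members themselves CD27 and TNFRSF13C were the most alike (0.731), followed by the neighbouring genes TNFSF9 and CD70 (0.593), and TNF and LTA had no gene above 0.748.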

How the data were processed

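Of 54675 probe sets on each array, 62 controls were left out. The authors deposited linear intensity values, which the submitters' processing notes credit to MAS5; version and settings: not given in the sources used here. On the file, values under 5 were whole multiples of a step of 0.92 to 1.07 per array (tolerance 0.05), and every array had the same mean. Depth has no meaning for arrays; their number, 3 per group, limits the precision.

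From the deposited intensity, values under 1 were set to 1 and log2 was taken. A probe set was kept if, in any line, the mean of the 15 arrays exceeded the median probe set's mean (log2 3.55, intensity 11.7), and each gene was read from its brightest probe set. limma 3.58.1 (R 4.3.3) fitted 25 group means with an intensity trend (50 residual degrees of freedom), and p-values were two-sided and given the Benjamini-Hochberg adjustment, comparison by comparison, over 13879 genes. F tests asked whether a change, or the PBS level, differed between the lines. The fit was tested on simulated data.

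The members and lists were chosen with earlier results of these data known. The text names every member, of each list up to 4 genes with the smallest adjusted p, except where a count of 5 or fewer is named in full, and the most alike genes. Over all genes tested, replicate numbers did not pair the arrays: deviations of same-numbered arrays correlated at -0.0812 to 0.12. A single gene can depart from this, and for TNFSF9 the replicate block lowered the adjusted p of the F tests. Alternatives were a floor of 16, PBS as control, each array left out, a replicate block, quantile normalization, dropping the filter, and averaging or separately fitting probe sets; fitting a line alone was added after seeing the data.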

Additional observations from a re-analysis of the deposited data

Results flagged for a closer look

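The response of 3 members differed between the 5 lines by limma's F test on the difference itself, against isotype. For TNFSF9 the adjusted p was 0.0199 with GA101 and 0.0161 with rituximab: it changed by 0.62 and 0.08 in Z138, by 0.65 and 0.88 in HBL-2 and by -0.28 and -0.11 in REC-1. For CD70 it was 0.00969 and 0.0306, with the widest change in JEKO-1 (0.35 and 0.39) and the narrowest in HBL-2 for GA101 (0.10) and in REC-1 for rituximab (0.18). For TNFRSF17 it was 0.0148 and 0.00153, with 0.79 and 1.45 in HBL-2 against -0.83 and -0.31 in REC-1, where the intensities lie near the median probe set. With quantile normalization the tests for GA101 were not passed by TNFSF9 (adjusted p = 0.118) or CD70 (adjusted p = 0.326) and were passed by TNFRSF17 (adjusted p = 0.0307), and those for rituximab were passed by all 3 (adjusted p = 0.0267, 0.0474 and 0.00521). Groups of 3 arrays were not searched for outlying arrays.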

How the results depend on the processing

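Of 123 values of counts under the alternatives other than leaving out an array, 22 were counted as moved. Most of these were counts of 0 to 4 members or pairs of a member and a line. Only larger relative changes were counted as moves, so the other counts did not all stay the same. With PBS as control, GA101 changed 2 members over all lines in place of 3, and the combination 6 pairs in place of 9. Without 1 array, GA101 changed 2 to 3 members against isotype over all lines. None of these shifts was counted as a move. Between GA101 and rituximab, members called over all lines went from 0 to 1 with a floor of 16; pairs called within lines went from 1 to 2 with the replicate block and with that floor, to 0 with the mean of probe sets and to 3 with each line fitted alone; and members whose difference varied between lines went from 0 to 1 with the replicate block and with quantile normalization and to 2 with that floor. For the combination minus GA101, 1 member was called over all lines with a floor of 16, and 1 pair in place of 2 with the replicate block, quantile normalization, no filter, the mean of probe sets, all probe sets fitted and that floor. For isotype minus PBS, 2 members were called with that floor, 1 pair with quantile normalization and 0 with each line fitted alone. The members whose change with GA101 varied between lines fell from 3 to 1, TNFRSF17, with quantile normalization. With PBS as control, rituximab changed 1 member over all lines in place of 2, and 4 pairs in place of 7 with GA101 and with rituximab. Without 1 array, the members called over all lines were 0 to 1 for GA101 minus rituximab and for the combination minus GA101, the pairs 1 to 3, 0 to 3 and, for isotype minus PBS, 1 to 2, and the members varying between lines for GA101 minus rituximab 0 to 2. REC-1 GA101 replicate 3 moved 4 of these 5 counts between treatments. The sign turned for CD70 with the combination in HBL-2 against PBS (-0.0172) and for TNFRSF17 with GA101 in REC-1 with a floor of 16 (0.0894). The causes were not tested beyond the construction of each alternative. The replicate numbers pair no arrays by the correlations given above, and with the block no other count was counted as moved. The rises of CD70 and TNFSF9 over all lines against isotype, those of TNFRSF17 in HBL-2 with rituximab and the combination, and that of CD27 in Z138 with the combination passed without each array in turn. LTA, TNF and, in REC-1, TNFRSF17 lie near the floor, which limits what they can show. The isotype arrays of CD27 and TNFRSF13C in Z138 lie around the median probe set, which limits their calls as well.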

Other observations

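Other pathway genes named in the report also differed in level between the lines. TNFSF4 (OX40L) had mean PBS intensities of 5.74 in Z138, 30.7 in REC-1, 45.1 in JEKO-1, 64.5 in HBL-2 and 229.98 in GRANTA-519. TNFAIP3, the feedback inhibitor of NF-κB, was at 1384 in GRANTA-519, 516 in Z138, 320.4 in REC-1, 106 in HBL-2 and 87.2 in JEKO-1. TNFRSF1B, a TNF receptor, was at 467 in REC-1 and at 55.8 to 132 in the other lines, and TNFRSF1A, the other one, at 2.61 in REC-1 and 15.3 to 50.9 elsewhere. CD40 was at 97.8 in Z138 and at 270.0 to 349 in the other lines. RELB and TRAF3 had narrower ranges, of 105 to 217 and 409 to 602. Against PBS, TRAF3 was lower with GA101 (-0.25), rituximab (-0.27) and the combination (-0.24), and CD40 was lower with rituximab (-0.37) and the combination (-0.33), all called.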
